A study of Mus musculus with 23 samples.

Results

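Aminoacyl-tRNA synthetases were followed as a gene family in livers of weanling mice exposed to maternal metabolic syndrome (MetS). The 36 genes were taken from a list by symbol, 20 of them encoding cytosolic and 16 encoding mitochondrial enzymes, out of 49585 genes in the table. All 36 were found and passed the filter on low counts, as did 14466 genes in all. The family was selected on the comparison of the 4 exposure groups in these data, so its group differences are given as a description, and counts of its members support nothing beyond themselves.

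Liver polyadenylated RNA was sequenced from 23 C57Bl/6J mice, 1 library per animal. Dams called MetS here had eaten a high-fat diet (45% fat) and control (Ct) dams a diet with 10% fat, in each case started at 3 weeks of age and kept up for 7 weeks in some dams and 17 in others, and all were mated to males on the control diet. On the day of birth every litter was set to 5 pups and given to a foster dam that had delivered that day. The first part of a group's name is the gestational dam and the second the foster dam. MetS-MetS pups (n = 5) had MetS dams before and after birth, Ct-MetS pups (n = 6) only after birth, MetS-Ct pups (n = 6) only before birth, and Ct-Ct pups (n = 6) at neither time. All were killed at postnatal day 21, except that MetS-Ct_97 is labelled day 22. All groups shared strain and cross-fostering. Library totals were 16876460 to 29184628 counts in MetS-MetS, 21388591 to 34527932 in Ct-MetS, 23996005 to 32503461 in MetS-Ct and 25006606 to 28675811 in Ct-Ct. The sources used here do not tie animals to a litter, a sex or a length of diet, so p-values measure the spread between animals that may be siblings. Summed levels of 10 hepatocyte markers, among them albumin, were 146248 to 164677 CPM (counts-per-million) in MetS-MetS, 126645 to 157223 in Ct-MetS, 132947 to 159326 in MetS-Ct and 116630 to 150669 in Ct-Ct, with no marker at 0 in any library.

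Each synthetase joins an amino acid to the tRNAs that carry it, the step that sets the genetic code. Most animal cells keep separate enzymes for the cytosol and for the mitochondrion, where the imported enzymes are encoded in the nucleus. A group of 8 cytosolic enzymes sit in a multi-synthetase complex with 3 scaffold proteins, and in other mammalian cells many cytosolic synthetase genes are transcribed by ATF4, the factor that is translated when amino acids are short and uncharged tRNA activates the kinase GCN2. Hepatocytes make and export most plasma proteins and depend on steady tRNA charging.

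The core of the composite element bound by ATF4 with C/EBP factors, TGATGNAA, was looked for on either strand of the 250 bases before each gene's start (RefSeq, GRCm38.p6). Of 36 synthetase genes 27 had an entry. The core was found before 3 of 13 cytosolic genes (Aars, Gars and Tars, 23.1%) and before 0 of 14 mitochondrial genes, against 1056 of 27025 genes (3.91%) over all promoters. The windows below are shown because they hold the matches before Gars and Tars, with the match in Asns, the asparagine synthetase gene and a well-known ATF4 target, for comparison. Each is 30 bases on the gene's own strand, and capitals mark the core, which reads TTNCATCA where it lies on the other strand.
Gars, chr6:55037960-55037989, plus strand: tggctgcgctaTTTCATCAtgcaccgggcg
Tars, chr15:11399659-11399688, minus strand: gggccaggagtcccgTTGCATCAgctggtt
Asns, chr6:7693214-7693243, minus strand: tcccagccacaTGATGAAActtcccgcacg
The matches shown began 30, 15 and 23 bases before the RefSeq start of Gars, Tars and Asns. The whole 250 bases are shown for Gars and Mars, which were called lower in MetS-MetS livers and of which Gars holds the core in this window and Mars does not.
Gars, chr6:55037751-55038000, plus strand: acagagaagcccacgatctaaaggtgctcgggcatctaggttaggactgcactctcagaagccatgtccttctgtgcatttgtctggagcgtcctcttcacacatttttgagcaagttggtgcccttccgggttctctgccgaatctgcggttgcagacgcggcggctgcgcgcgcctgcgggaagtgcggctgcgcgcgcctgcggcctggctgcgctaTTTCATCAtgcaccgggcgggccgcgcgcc
Mars, chr10:127311787-127312036, minus strand: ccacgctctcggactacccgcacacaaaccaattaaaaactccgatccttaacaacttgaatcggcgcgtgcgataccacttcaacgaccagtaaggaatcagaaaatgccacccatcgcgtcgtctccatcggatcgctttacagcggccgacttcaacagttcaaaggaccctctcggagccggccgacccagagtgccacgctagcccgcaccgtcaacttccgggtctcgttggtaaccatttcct
A match in letters is a description and not a binding site, and a window without a match says nothing of the factor.

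Transcript levels over the 23 livers are compared per length, as CPM per kb of exon (exon lengths from GENCODE M21, GRCm38). The length takes in every annotated exon of a gene, over all its transcripts, whether or not liver uses it. Cytosolic genes had a median of 11.6 CPM per kb, with Farsa, a subunit of the phenylalanine enzyme, lowest at 4.63 and Nars, for asparagine, highest at 28.4. Mitochondrial genes had a median of 3.93 CPM per kb, with Mars2, for methionine, lowest at 0.706. That rank rests on length, since Mars2 had 7.97 CPM over 11294 bases and Pars2, for proline, 4.72 CPM over 3094 bases. Lars2, for leucine, stood far above its class at 95.8 CPM per kb, and the next mitochondrial genes were Iars2, for isoleucine, at 8.84 and Fars2, for phenylalanine, at 7.25 CPM per kb. Iars2 shares 2034 exon bases with Rab3gap2 on the opposite strand, at 36.7 CPM. The smallest count behind any of these values was 64, for Pars2. The ratio of highest to lowest library was 1.29 for Kars, the steadiest member, 2.89 for Cars and 2.94 for Lars2.

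**Figure D1:**
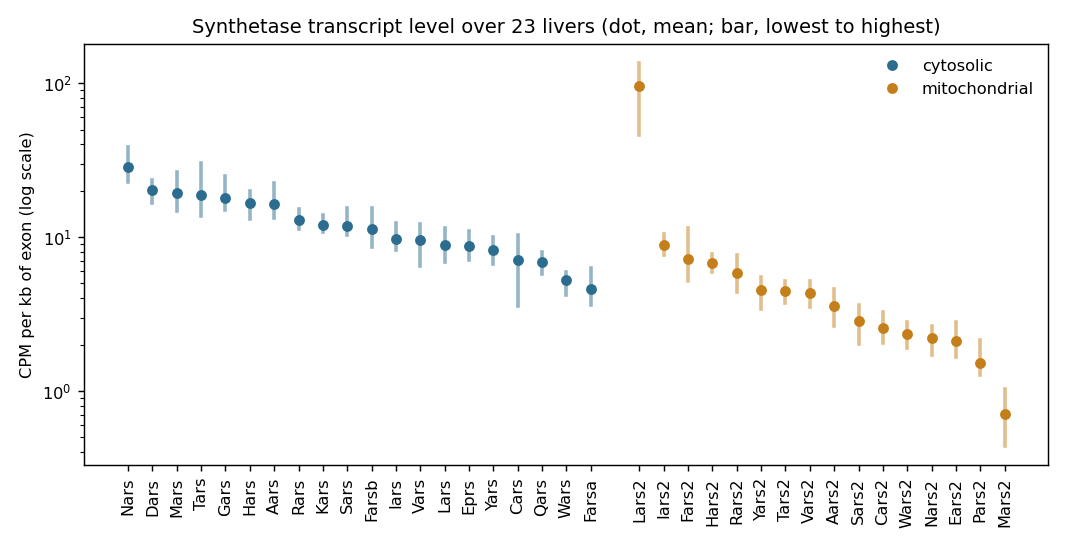
Mean level of each synthetase gene in CPM per kb of exon (log axis) over 23 livers, with bars from the lowest to the highest library, cytosolic genes on the left and mitochondrial genes on the right. Lars2, at 95.8 CPM per kb, lies above every cytosolic gene, and the other mitochondrial genes lie at or below 8.84.

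With exposure at both times, MetS-MetS against Ct-Ct, 4 synthetase genes fell and 0 rose (edgeR's quasi-likelihood test with all 23 libraries, Benjamini-Hochberg adjusted p under 0.05 over all genes). They were the cytosolic Lars, Gars and Mars, for leucine, glycine and methionine, and the mitochondrial Fars2. Among all genes tested 5.78% were called in either direction and 2.72% as lower. The changes were small, between 1.26-fold and 1.41-fold.

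Lars, whose enzyme also senses leucine for the growth kinase mTORC1 in human cells, lies at chr18:42202298-42262194. It had 42.9, 42.2, 42.3, 38.8 and 36.9 CPM in the 5 MetS-MetS livers, against a lowest of 53.6, a median of 57.1 and a highest of 61.8 CPM in Ct-Ct livers. The 2 groups did not overlap. The log2 fold change was −0.50 ± 0.069 (SE, adjusted p = 0.0013), and it kept its call in edgeR's test with any 1 of the 23 libraries left out (adjusted p at most 0.0075).

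Gars, at chr6:55038007-55079500, serves both the cytosol and mitochondria from the same gene in human cells. It had 55.3, 50.2, 52.0, 51.4 and 50.4 CPM in MetS-MetS livers. Ct-Ct livers had a lowest of 56.9, a median of 63.5 and a highest of 78.1 CPM, again without overlap. The log2 fold change was −0.33 ± 0.077 (SE, adjusted p = 0.0179 by edgeR). The call was kept with any 1 library left out (adjusted p at most 0.0498).

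Mars, at chr10:127296221-127311786, encodes the enzyme that charges both the initiator and the elongator methionine tRNA. It had 61.4, 65.5, 61.4, 57.7 and 50.5 CPM in MetS-MetS livers, against a lowest of 65.9, a median of 77.8 and a highest of 90.5 CPM in Ct-Ct livers. The groups touched without overlapping, since the highest MetS-MetS liver lay just under the lowest Ct-Ct liver. The log2 fold change was −0.39 ± 0.090 (SE, adjusted p = 0.0179 by edgeR). Without MetS-MetS_157, the lowest of these livers, the adjusted p was 0.0503 and the call was lost. Mars shares 68 exon bases with Ddit3 on the opposite strand, and the sources used here do not say whether reads were counted by strand. Ddit3 was low, at 8.58 CPM, and was not called (log2 fold change −0.17, adjusted p = 0.733 by edgeR).

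Fars2 spans chr13:36117412-36726280 and had 34.3, 38.98, 38.9, 34.1 and 37.6 CPM in MetS-MetS livers, against a lowest of 38.2, a median of 47.2 and a highest of 66.4 CPM in Ct-Ct livers. The groups overlapped, because Ct-Ct_33 lay among the exposed livers, and Ct-Ct_129 and Ct-Ct_139 stood far above the rest at 66.4 and 65.8 CPM. The log2 fold change was −0.50 ± 0.13 (SE, adjusted p = 0.0251 by edgeR). The call was lost without Ct-Ct_129 (adjusted p = 0.0722), without Ct-Ct_139 (0.0644), without MetS-MetS_154 (0.054), without MetS-MetS_157 (0.0503) and with only the compared groups in the fit (0.0537). Fars2 shares 501 exon bases with Nrn1 on the opposite strand, at 442 CPM, and 115 with Lyrm4, at 11.7 CPM. Nrn1 had a log2 fold change of −0.058 (adjusted p = 0.848) and Lyrm4 one of −0.077 (adjusted p = 0.723) in the same edgeR fit.

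In the same comparison 3 of 36 synthetase genes, Gars, Lars and Mars, had every MetS-MetS library below every Ct-Ct library, against 1.97% of all genes tested. Of the 20 cytosolic genes 18 had a negative log2 fold change, with a median of −0.21. Of the 16 mitochondrial genes 10 did, with a median of −0.096. Over all genes tested 50.6% were negative and the median was −0.0038. The 2 cytosolic genes on the positive side were Dars, for aspartate, at 0.12 ± 0.078, and Qars, for glutamine, at 0.21 ± 0.069 (SE). Neither passed edgeR's test (adjusted p = 0.363 and 0.0663). DESeq2 called Qars as higher and Nars as lower, beside the 4 genes that edgeR called. Over all genes DESeq2 called 1346 there. Nars lay at −0.31 ± 0.098 in edgeR's test (SE, adjusted p = 0.0642).

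The mitochondrial genes next to Fars2 by p did not pass. Aars2, for alanine, had 12.8, 17.0, 15.6, 14.9 and 12.6 CPM in MetS-MetS livers, against a lowest of 15.6, a median of 18.8 and a highest of 21.4 CPM in Ct-Ct livers (log2 fold change −0.38 ± 0.13, adjusted p = 0.073 by edgeR). Cars2, for cysteine, had 18.9, 17.1, 16.8, 14.8 and 15.9 CPM in MetS-MetS livers, against a lowest of 17.0, a median of 20.4 and a highest of 23.8 CPM in Ct-Ct livers (−0.30 ± 0.10, adjusted p = 0.0832 by edgeR). Both overlapped Ct-Ct at its low end. Hars2, for histidine, lay on the positive side, with 29.8, 32.1, 31.6, 33.3 and 28.0 CPM in MetS-MetS livers and a lowest of 25.2, a median of 27.2 and a highest of 30.8 CPM in Ct-Ct livers (0.17 ± 0.063, adjusted p = 0.109 by edgeR). Without Ct-Ct_33 Aars2 and Hars2 were called (adjusted p = 0.0388 and 0.0465), as was Cars2 without Ct-Ct_10 (0.0456). Hars2 shares 195 exon bases with Hars, and Cars2 shares 422 with Naxd, each on the opposite strand.

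**Figure D2:**
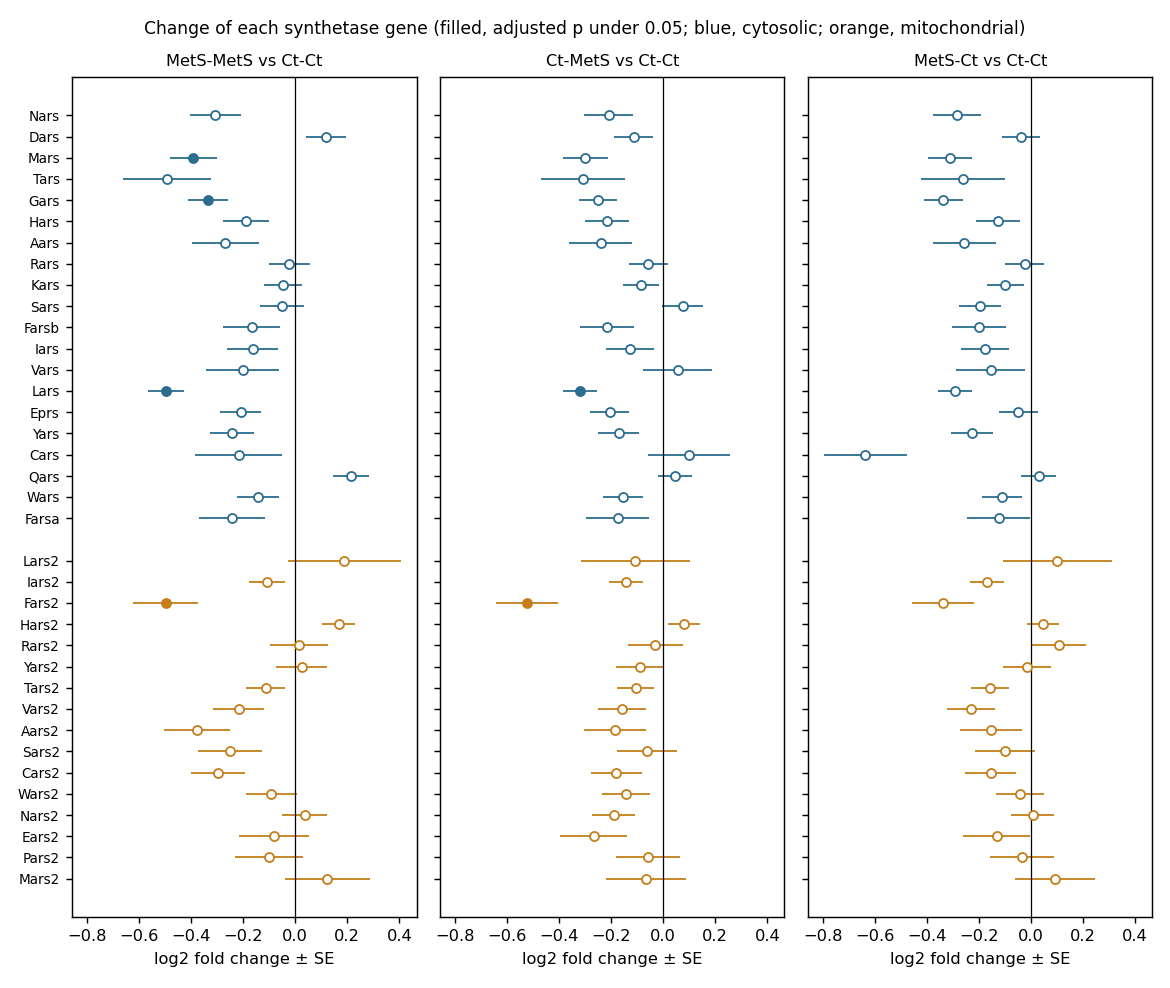
Log2 fold change with its standard error for the 36 synthetase genes in MetS-MetS, Ct-MetS and MetS-Ct, each against the same 6 Ct-Ct livers. Filled points passed an adjusted p of 0.05 in edgeR's test, 4 in MetS-MetS, 2 in Ct-MetS and 0 in MetS-Ct, and most cytosolic points lie left of 0 in each panel.

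With exposure after birth alone, Ct-MetS against Ct-Ct, Lars and Fars2 fell and 0 synthetase genes rose. Of all genes tested 0.954% were called and 0.366% were called as lower. This comparison and the next use the same Ct-Ct livers as the first, so the 3 are not independent. Lars had a lowest of 42.1, a median of 44.7 and a highest of 52.1 CPM in Ct-MetS livers, and all 6 lay under the lowest Ct-Ct liver at 53.6 CPM. Its log2 fold change was −0.32 ± 0.065 (SE, adjusted p = 0.0225 by edgeR). The call was lost without Ct-MetS_169, Ct-Ct_4, Ct-Ct_10 or Ct-Ct_139 (adjusted p at most 0.0603), with only the compared groups in the fit (0.0626) and with no filter on low counts (0.0573).

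Fars2 had a lowest of 29.6, a median of 37.5 and a highest of 38.97 CPM in Ct-MetS livers, which overlapped Ct-Ct at its lowest liver, 38.2 CPM. Its log2 fold change was −0.52 ± 0.12 (SE, adjusted p = 0.0327 by edgeR). The call was lost without any of 8 libraries, Ct-MetS_24, Ct-MetS_50, Ct-MetS_63, Ct-MetS_169, Ct-Ct_4, Ct-Ct_10, Ct-Ct_129 and Ct-Ct_139 (adjusted p at most 0.0965). It was also lost with only the compared groups in the fit (0.0864). No other member passed edgeR's test with all libraries. Gars had a lowest of 48.3, a median of 55.4 and a highest of 59.5 CPM in Ct-MetS livers, and Mars a lowest of 53.8, a median of 63.2 and a highest of 77.8 CPM, both overlapping Ct-Ct. Gars lay at −0.25 ± 0.073 (adjusted p = 0.0982) and Mars at −0.30 ± 0.085 (0.0932) in the same fit. DESeq2 called Mars (adjusted p = 0.044), as did edgeR without Ct-MetS_63 (0.0419) or Ct-Ct_33 (0.0411), and edgeR called Gars without Ct-Ct_33 (0.0432). Over all genes DESeq2 called 425 in this comparison. Lars was the only member with every Ct-MetS library below every Ct-Ct library, against 0.512% of all genes. Negative fold changes were found for 16 of 20 cytosolic genes (median −0.17) and 15 of 16 mitochondrial genes (median −0.12), against 52.9% of all genes (median −0.013).

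With exposure before birth alone, MetS-Ct against Ct-Ct, 0 synthetase genes passed edgeR's test, as did 0 of all 14466 genes (0%). At an unadjusted p under 0.05, 12 of the 36 lay lower and 0 higher, against 3.09% of all genes lower at that p. DESeq2 called 14 genes over all, among them 2 members, Gars and Lars. Negative fold changes were found for 19 of 20 cytosolic genes (median −0.19) and 11 of 16 mitochondrial genes (median −0.070), against 50.4% of all genes (median −0.0015). Gars, Lars and Sars, for serine, had every MetS-Ct library below every Ct-Ct library, against 0.159% of all genes. Lars had a lowest of 41.8, a median of 47.1 and a highest of 51.3 CPM in MetS-Ct livers, and Gars a lowest of 46.5, a median of 52.3 and a highest of 55.9 CPM. Mars had a lowest of 59.8, a median of 62.2 and a highest of 68.1 CPM in MetS-Ct livers, and Fars2 a lowest of 33.4, a median of 42.0 and a highest of 47.2 CPM, both overlapping Ct-Ct. Sars had a lowest of 52.8, a median of 53.9 and a highest of 57.1 CPM in MetS-Ct livers, against a lowest of 59.4, a median of 60.5 and a highest of 67.5 CPM in Ct-Ct livers.

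Cars, for cysteine, had the most negative estimate of any member in this comparison. It had a lowest of 23.6, a median of 33.8 and a highest of 42.9 CPM in MetS-Ct livers, against a lowest of 41.3, a median of 54.0 and a highest of 63.6 CPM in Ct-Ct livers. The groups met at their edges, where the 2 lowest Ct-Ct livers reached the highest MetS-Ct liver. The log2 fold change was −0.64 ± 0.16 (SE, adjusted p = 0.447 by edgeR), which did not pass. In Ct-MetS livers Cars had a lowest of 40.9, a median of 54.7 and a highest of 68.3 CPM (log2 fold change 0.10 ± 0.16, adjusted p = 0.864 by edgeR). MetS-MetS livers had 42.2, 45.3, 45.3, 58.4 and 31.8 CPM, of which all but the lowest lay above the lowest Ct-Ct liver (−0.22 ± 0.17, adjusted p = 0.447 by edgeR). The MetS-Ct median lay below the lowest liver of both Ct-MetS and Ct-Ct, but above the lowest MetS-MetS liver.

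**Figure D3:**
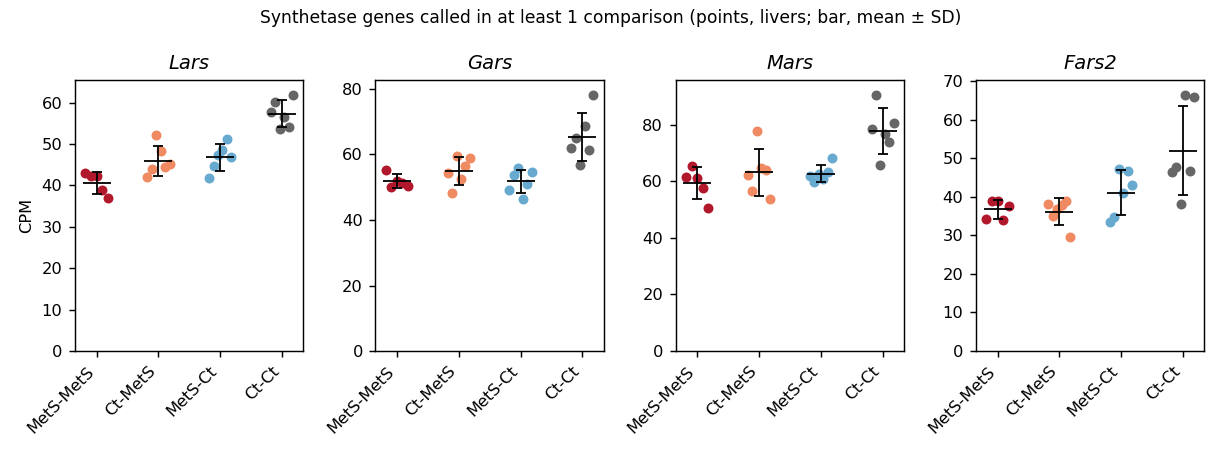
CPM of Lars, Gars, Mars and Fars2 in each liver, in the order MetS-MetS, Ct-MetS, MetS-Ct and Ct-Ct, with the mean and SD of each group. All exposed livers lie below all Ct-Ct livers for Lars, where the highest exposed liver reached 52.1 CPM and the lowest Ct-Ct liver 53.6 CPM, and Fars2 shows 2 high Ct-Ct livers at 66.4 and 65.8 CPM.

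Postnatal exposure was also averaged over both prenatal states, which sets the 11 pups nursed by MetS dams against the 12 nursed by control dams. Lars fell by 0.26 ± 0.048 (SE) on the log2 scale (adjusted p = 0.00468 by edgeR), with its call kept in all 23 fits that left out 1 library. Fars2 fell by 0.34 ± 0.087 (SE, adjusted p = 0.0278 by edgeR), a call lost without MetS-MetS_154, MetS-Ct_85 or Ct-Ct_129 (adjusted p at most 0.0552). These 2 of 36 members, both lower, compare with 4.22% of all genes called and 1.95% called as lower. DESeq2 also called Eprs as lower, which lay at −0.18 ± 0.054 in edgeR's test (SE, adjusted p = 0.0563). Over all genes DESeq2 called 1038 with postnatal exposure. Prenatal exposure averaged over both postnatal states gave 0 called members, against 0.00691% of all genes. For it 9 members lay lower and 0 higher at an unadjusted p under 0.05, against 7.68% of all genes lower at that p. DESeq2 called 165 genes over all there, among them 3 members, Cars, Gars and Lars. Cars had the largest of these estimates, −0.48 ± 0.12 (adjusted p = 0.156 by edgeR). The interaction of prenatal and postnatal exposure, the departure of MetS-MetS from the sum of both single exposures, gave 0 called members and 0 called genes (0%) in edgeR's test. At an unadjusted p under 0.05, 4 members lay on its positive side and 0 on its negative side, against 2.72% of all genes on the positive side at that p, and DESeq2 called 0 members. Its estimates were negative for 1 of 20 cytosolic and 4 of 16 mitochondrial genes, with medians of 0.14 and 0.11, against 49.3% of all genes and a median of 0.0039.

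The 2 classes were summarised per liver as the mean log2 difference of their members from the Ct-Ct mean. The cytosolic mean was −0.19 ± 0.066 in MetS-MetS, −0.14 ± 0.073 in Ct-MetS, −0.19 ± 0.093 in MetS-Ct and 0 ± 0.12 in Ct-Ct (SD over livers, n = 5, 6, 6 and 6). The mitochondrial mean was −0.093 ± 0.030 in MetS-MetS, −0.14 ± 0.083 in Ct-MetS, −0.071 ± 0.066 in MetS-Ct and 0 ± 0.078 in Ct-Ct. The cytosolic mean lay below the mitochondrial mean by 0.095 ± 0.062 in MetS-MetS and 0.12 ± 0.10 in MetS-Ct, and the classes were level in Ct-MetS (−0.0044 ± 0.087) and, by construction, in Ct-Ct (0 ± 0.050). The group means of the classes thus lay apart in both groups with a MetS dam in gestation, a difference that was not tested. Single livers overlapped, with cytosolic minus mitochondrial means of −0.041 in MetS-MetS_39, −0.0041 in MetS-Ct_149 and −0.056 in Ct-Ct_4. Ct-MetS_50, with no MetS dam in gestation, lay at −0.16.

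Single livers weighed on these means. Ct-Ct_33 had a cytosolic mean of −0.18, inside the range of the exposed livers, and Ct-Ct_139 was the highest of all at 0.16. Ct-Ct_139 had the highest level of any liver for 9 of 20 cytosolic and 3 of 16 mitochondrial genes. Ct-MetS_63 lay at 0.0035, at the level of the controls, whereas MetS-Ct_70 was lowest at −0.31, with all 20 cytosolic genes below the Ct-Ct mean. MetS-Ct_97, the animal labelled day 22, had the widest gap between the classes, at −0.27 for the cytosolic and 0.016 for the mitochondrial mean. Without Ct-Ct_33 the number of members called by edgeR was 11 in MetS-MetS, 4 in Ct-MetS, 4 with postnatal and 1 with prenatal exposure, and without Ct-Ct_139 it was 3, 0, 2 and 0. Counts over all genes without Ct-Ct_139 are not given here, so the member counts without it have no such figure beside them. Calls over all genes rose as well without Ct-Ct_33 in MetS-MetS, in Ct-MetS and with prenatal exposure. They went from 836 to 1354 in MetS-MetS, from 138 to 246 in Ct-MetS and from 1 to 22 with prenatal exposure.

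**Figure D4:**
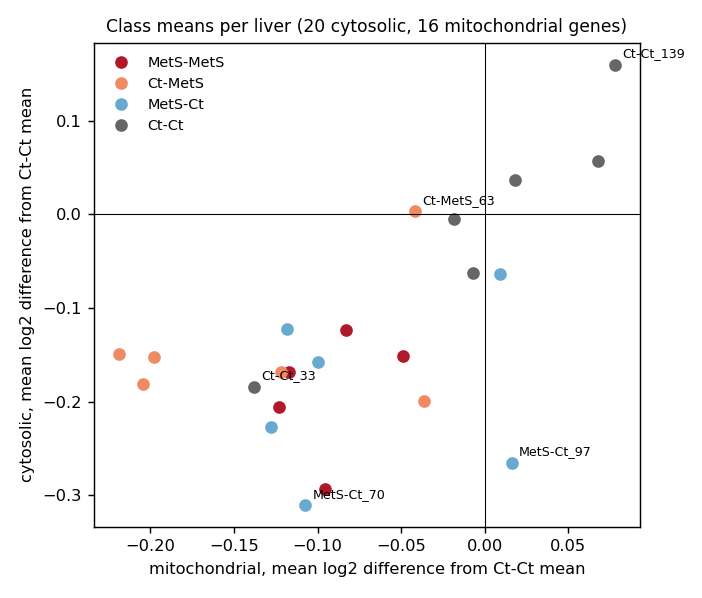
Mean log2 difference from the Ct-Ct mean for the 20 cytosolic genes (vertical axis) against the 16 mitochondrial genes (horizontal axis), 1 point per liver. The Ct-Ct livers spread from Ct-Ct_33 at −0.18 to Ct-Ct_139 at 0.16 on the vertical axis, and Ct-MetS_63, at 0.0035, is the only exposed liver above 0 there.

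Cytosolic and mitochondrial enzymes for the same amino acid could be set side by side for 13 pairs. The cytosolic gene had the lower log2 fold change in 9 pairs in MetS-MetS (median difference −0.056), 9 in Ct-MetS (−0.027) and 12 in MetS-Ct (−0.13). In the leucine pair Lars fell in MetS-MetS, while Lars2 lay at 0.19 ± 0.22 (adjusted p = 0.64 by edgeR). Phenylalanine was not among the pairs, because its cytosolic enzyme has the subunit genes Farsa and Farsb. Fars2 fell in MetS-MetS, and Farsa and Farsb also had negative estimates there, −0.24 ± 0.13 (adjusted p = 0.248) and −0.17 ± 0.11 (0.368, both by edgeR), which did not pass.

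The 8 genes of the multi-synthetase complex, Dars, Eprs, Iars, Kars, Lars, Mars, Qars and Rars, held 2 of the 3 cytosolic calls in MetS-MetS. The median log2 fold change was −0.10 in the complex and −0.23 for the other 12 cytosolic genes in MetS-MetS, −0.12 and −0.19 in Ct-MetS, and −0.073 and −0.21 in MetS-Ct. Members of the complex ranged in MetS-MetS from Lars at −0.50 to Qars at 0.21. Of the 3 scaffold genes, 0 passed in any comparison by edgeR, 0 by DESeq2 and 0 at an unadjusted p under 0.05 in edgeR's test. Aimp1 lay at −0.023 ± 0.099 (adjusted p = 0.912) and Aimp2 at 0.17 ± 0.12 (0.401) in MetS-MetS.

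Lars2, the most abundant member, was the most variable. It had 1264, 1213, 685, 1211 and 1498 CPM in MetS-MetS livers, a lowest of 639, a median of 941 and a highest of 1216 CPM in Ct-MetS, a lowest of 853, a median of 1085 and a highest of 1341 CPM in MetS-Ct, and a lowest of 509, a median of 981 and a highest of 1489 CPM in Ct-Ct. The groups overlapped throughout. Its level moved with Gm42418, a transcript annotated over a ribosomal RNA region, which had 3250 to 10559 CPM in Ct-Ct livers alone. With group means removed from the log2 values, Pearson's r was 0.948 and Spearman's rho 0.883 over 23 livers (permutation p = 1e-05 for each, the smallest that 100000 permutations within groups can give, two-sided, adjusted p = 0.00036 over the 36 members compared). Without Ct-Ct_33 and MetS-MetS_110, the 2 livers farthest from the median of Gm42418 on this scale of log2 values with group means removed, r was 0.899. The other 35 members had r between −0.512 and 0.630 with Gm42418, with a median of 0.260. With mt-Rnr2, the mitochondrial large ribosomal RNA, Lars2 had r = 0.0889, and mt-Rnr2 itself lay at −0.050 ± 0.22 in MetS-MetS (adjusted p = 0.913 by edgeR). The longest stretch that Lars2 transcripts share with Gm42418 was 12 bases, the same as with mt-Rnr2. Whether ribosomal RNA carried over in some libraries has a part in the counts of Lars2 was not tested.

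**Figure D5:**
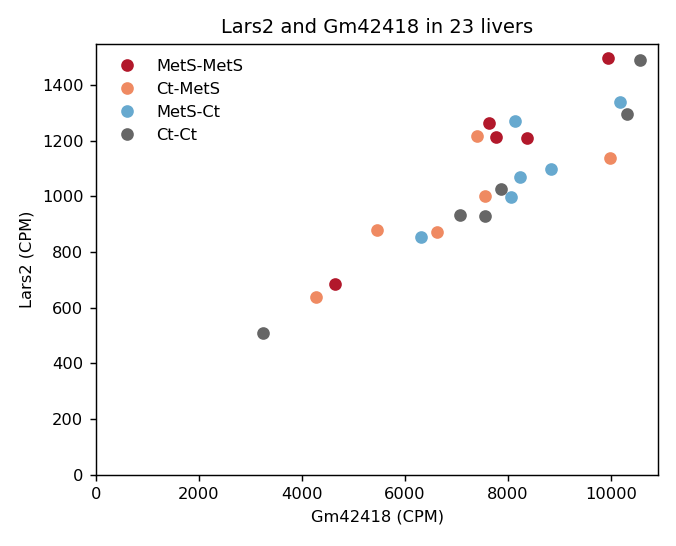
Lars2 against Gm42418, both in CPM, in 23 livers marked by group. Livers of all 4 groups fall along the same rising band, from 509 CPM of Lars2 in the Ct-Ct liver with the least Gm42418 to 1498 CPM in a MetS-MetS liver.

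Genes that work beside the synthetases were counted from lists. Of 11 measured partners in tRNA charging and proofreading 2 fell in MetS-MetS and 0 rose, with 1 of them also lower with postnatal exposure. Of all genes tested 2.72% were called as lower in MetS-MetS and 1.95% with postnatal exposure. Dtd1, which removes D-amino acids from tRNA, fell by 0.50 ± 0.13 in MetS-MetS (SE, adjusted p = 0.0329) and by 0.33 ± 0.094 with postnatal exposure (0.0425, both by edgeR). Mtfmt, which formylates the initiator methionyl-tRNA of mitochondria, fell by 0.36 ± 0.11 in MetS-MetS (SE, adjusted p = 0.0493 by edgeR). These calls rested on few libraries, since leaving out 1 lost that of Mtfmt in 16 of 23 fits (adjusted p at most 0.109) and those of Dtd1 in 5 fits in MetS-MetS (0.0893) and 15 with postnatal exposure (0.0751). Of 8 cytosolic elongation and termination genes 0 passed in any comparison in edgeR's test. In MetS-MetS 2 of the 8 were at an unadjusted p under 0.05, against 24.4% of all genes, and DESeq2 called 1, Eef2k, the kinase that slows elongation, as higher there. Of 10 mitochondrial translation factors 1 fell with postnatal exposure, against the same 1.95% of all genes. It was Gfm1, the mitochondrial elongation factor G1, by 0.22 ± 0.063 (SE, adjusted p = 0.0489 by edgeR), a call lost in 18 of 23 fits without 1 library (at most 0.0837). Tarsl2, a threonyl-tRNA synthetase gene outside the list, lay at 0.21 ± 0.10 in MetS-MetS (log2 difference, SE, adjusted p = 0.199 by edgeR).

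Of 14 measured genes of the pathway through GCN2 and ATF4, 1 rose in MetS-MetS, Ppp1r15b, a constitutive subunit that restores translation by dephosphorylating eIF2, with a log2 fold change of 0.39 ± 0.11 (SE, adjusted p = 0.0397 by edgeR, lost in 8 of 23 fits without 1 library). Over all genes 443 of 14466 were called as higher there. Atf4 itself had a log2 fold change of −0.039 ± 0.098 in MetS-MetS, −0.11 ± 0.093 in Ct-MetS and −0.28 ± 0.093 in MetS-Ct (adjusted p = 0.847, 0.694 and 0.825 by edgeR). Of 26 known ATF4 targets outside the family, 2 fell and 1 rose in MetS-MetS, and 1 rose with postnatal exposure, Eif4ebp1, an inhibitor of translation initiation, by 0.29 ± 0.082 (SE, adjusted p = 0.0469 by edgeR, lost in 17 of 23 fits without 1 library). Of all 14466 genes 393 fell and 443 rose in MetS-MetS, and 329 rose with postnatal exposure.

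Asns had 4.57, 4.93, 6.74, 3.47 and 4.54 CPM in MetS-MetS livers, against a lowest of 8.57, a median of 9.83 and a highest of 12.0 CPM in Ct-Ct livers, without overlap. It fell 2.07-fold (log2 fold change −1.05 ± 0.19, SE, adjusted p = 0.00724 by edgeR). Psph, which makes serine in the last step of its synthesis, had 4.79, 6.92, 6.00, 4.84 and 3.88 CPM in MetS-MetS livers, all below the lowest Ct-Ct liver at 7.28 CPM. Its log2 fold change was −0.96 ± 0.20 (SE, adjusted p = 0.012 by edgeR). Herpud1, a component of degradation at the endoplasmic reticulum, went the other way, with 804, 537, 577, 479 and 509 CPM in MetS-MetS livers and a lowest of 215, a median of 288 and a highest of 459 CPM in Ct-Ct livers (log2 fold change 0.88 ± 0.22, SE, adjusted p = 0.0236 by edgeR). Asns and Psph kept their calls without any 1 library, and Herpud1 lost its call without MetS-MetS_39, MetS-MetS_110, Ct-Ct_4, Ct-Ct_129 or Ct-Ct_139 (adjusted p at most 0.0656). Of the 26 targets 12 had a negative log2 fold change in MetS-MetS, with a median of 0.10 and a range from −1.05 to 0.90. With prenatal exposure 0 targets passed edgeR's test, and 9 had an unadjusted p under 0.05, 7 of them lower, with a median of −0.25 over the list. Over all genes 2356 of 14466 had such a p there, 1111 of them lower. DESeq2 called Asns and Psph as lower and Herpud1 as higher there.

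Amino acid transporters and catabolic enzymes were counted in the same way. Of 12 transporter genes 0 passed in any comparison in edgeR's test and 0 by DESeq2. By edgeR 1 was at an unadjusted p under 0.05 in MetS-MetS and 3 with prenatal exposure, against 3528 and 2356 of 14466 genes. Slc38a1, a carrier of neutral amino acids, lay at 0.47 ± 0.15 in Ct-MetS (adjusted p = 0.148) and Slc43a1, a carrier of large neutral amino acids, at 0.31 ± 0.15 in MetS-MetS (0.206, both by edgeR). Of 17 enzymes of amino acid breakdown 3 fell with postnatal exposure and 0 rose, against 1.95% of all genes called as lower. At an unadjusted p under 0.05 in edgeR's test 9 of the 17 stood out there, all lower, against 1529 of 14466 genes lower. DESeq2 called 4 as lower. Prodh, the first enzyme of proline breakdown, fell by 0.74 ± 0.15, Hal, which breaks down histidine, by 0.53 ± 0.13, and Bckdhb, a subunit of the branched-chain ketoacid dehydrogenase, by 0.27 ± 0.068 on the log2 scale (SE, adjusted p = 0.00976, 0.0245 and 0.0354 by edgeR). The call of Bckdhb was lost in 14 of 23 fits without 1 library and that of Hal without MetS-MetS_154. In Ct-MetS edgeR called Prodh alone, at −1.09 ± 0.21 (adjusted p = 0.0187 by edgeR, 0.0508 without Ct-Ct_10), and DESeq2 called 2 as lower, Prodh and Bckdhb. With prenatal exposure 0 of the 17 passed edgeR's test, DESeq2 called 1 as higher, and 0 had a negative estimate. An unadjusted p under 0.05 was found there for 7 of them, against 2356 of 14466 genes.

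Markers of other liver cells moved between the same groups. Of the 10 hepatocyte markers 0 passed by edgeR in any comparison. In MetS-MetS 5 of them had an unadjusted p under 0.05, against 24.4% of all genes, and DESeq2 called 2, Alb and Cyp2e1, as higher. Of 10 Kupffer cell markers 6 rose in MetS-MetS, 5 in Ct-MetS and 5 with postnatal exposure, and 0 fell. Of all 14466 genes 443, 85 and 329 were called as higher in these comparisons. In MetS-Ct 0 of the 10 passed and 0 had a negative estimate. An unadjusted p under 0.05 was found there for 4 of the 10 by edgeR, against 854 of 14466 genes in either direction. The summed level of the 10 Kupffer cell markers was 504 to 865 CPM in MetS-MetS, 578 to 824 in Ct-MetS, 522 to 600 in MetS-Ct and 399 to 510 in Ct-Ct, with none at 0. Cd68, a lysosomal protein of macrophages, rose by 0.65 ± 0.13 on the log2 scale in MetS-MetS (SE, adjusted p = 0.0107 by edgeR). Of 9 measured erythroid markers 3 rose in MetS-MetS, 1 in Ct-MetS and 3 with postnatal exposure, and 0 fell by edgeR, beside the same 443, 85 and 329 of all genes called as higher. The call in Ct-MetS, for Slc4a1, the anion exchanger of red cells, was lost in 13 of 23 fits without 1 library (adjusted p at most 0.105). Negative log2 fold changes were found for 1 of the 9 in MetS-MetS (median 0.18), 6 in Ct-MetS (median −0.35) and 8 in MetS-Ct (median −0.74). In MetS-Ct 6 lay lower at an unadjusted p under 0.05, against 447 of 14466 genes lower at that p. DESeq2 called 4 globin genes as lower in MetS-Ct, Hba-a1, Hba-a2, Hbb-bs and Hbb-bt, near-identical copies within each pair, between which reads may be split uncertainly. The summed level of the 9 was 421 to 774 CPM in MetS-MetS, 205 to 496 in Ct-MetS, 184 to 306 in MetS-Ct and 286 to 832 in Ct-Ct. With postnatal exposure 1 of 6 proliferation markers rose by edgeR, Ccnb2, a mitotic cyclin, while all 6 lay higher at an unadjusted p under 0.05 (median log2 difference 0.81), against 10.6% of all genes higher at that p, and DESeq2 called 5 as higher. In the same comparison 1 of 8 stellate cell markers rose, Rgs5, and 1 of 6 neutrophil and monocyte markers, Lcn2. Leaving out 1 library lost the call of Lcn2 in 17 of 23 fits (adjusted p at most 0.0837), that of Ccnb2 in 5 (0.056) and that of Rgs5 in 2 (0.0556). Of the endothelial (8), cholangiocyte (5), lymphocyte (8) and interferon response (10) genes measured, 0 passed in any comparison, whether by edgeR or by DESeq2. In MetS-MetS 3, 1, 1 and 0 of them had an unadjusted p under 0.05 by edgeR. In Ct-MetS 4, 0, 1 and 4 did, and with postnatal exposure 3, 0, 3 and 4, all of them higher. Over all genes 2013 of 14466 had such a p in Ct-MetS and 3060 with postnatal exposure, in either direction. In bulk tissue, fewer cells of a type and less RNA per cell cannot be told apart, and the part of cell makeup in the synthetase values was not tested.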

How the data were processed

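The 36 members, the gene lists and the tests were chosen with earlier results of these data known. Polyadenylated liver RNA of 23 mice was made into libraries with a directional kit, per the labels' protocols. FastQC, STAR, HTSeq and DESeq2 were used, per the submitters' processing notes, whereas the sources used here do not give the build, the annotation or the strand setting of counting. The authors deposited whole-number counts per gene. Symbols came from a table of Ensembl identifiers (49326 of 49585 matched), positions and exon lengths from GENCODE M21, promoters from RefSeq.

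Genes with a mean count of at least 10 (14466) were tested with edgeR 4.0.16 (R 4.3.3), by robust quasi-likelihood on TMM-scaled counts of all 23 libraries, with 1 mean fitted per group. Calls need a Benjamini-Hochberg adjusted p under 0.05 over all genes. CPM uses effective library sizes. The fit was tested on simulated counts. Alternatives were RLE size factors, no low-count filter, only the groups compared, DESeq2 1.42.0 and leaving out each library. Per-library values are given for members called in any comparison and, in each class, for the 4 with the smallest p. From other lists up to 4 called genes are named, or the 2 with the smallest p, and Asns, Atf4 and mt-Rnr2 always; some items are not reported here. Dars, Qars, Sars, Nars, Eprs, Lars2, Farsa, Farsb, Gm42418, globin genes, overlapping genes and neighbours of Cars were named after their values were seen.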

Additional observations from a re-analysis of the deposited data

Results flagged for a closer look

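In the Ct-Ct group Atf4 reached 99.8 CPM in Ct-Ct_130, far above the other 5 livers of its group. The gap to the nearest liver, as a share of the group's range, exceeded Dixon's 95% critical value. Among 48 sets of livers examined in this way 1 stood out, and chance alone is set to flag about 1 in 20.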

How the results depend on the processing

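No paired analysis was possible because animal numbers are not shared between groups. No result changed direction. With RLE size factors the number of members called was 4 in MetS-MetS, 2 in Ct-MetS, 2 with postnatal exposure and 0 elsewhere, as in the main analysis. DESeq2 called 2 members in MetS-Ct and 3 with prenatal exposure, where edgeR called 0, and also 6 in MetS-MetS (adding Nars and Qars), 3 in Ct-MetS (adding Mars) and 3 with postnatal exposure (adding Eprs). In Ct-MetS, where edgeR called 2, leaving out the filter on low counts gave 1 and fitting only the compared groups gave 0. Over fits that left out 1 library each, the number of members called ranged from 2 to 11 in MetS-MetS, 0 to 4 in Ct-MetS, 0 to 0 in MetS-Ct, 1 to 4 with postnatal exposure, 0 to 1 with prenatal exposure and 0 to 0 for the interaction. The low end was reached without MetS-MetS_157 in MetS-MetS, and the high ends without Ct-Ct_33. Over all genes, counts moved more than 1.5 times: in MetS-MetS (836) to 457 with no filter and 1346 with DESeq2, in Ct-MetS (138) to 47 with only the compared groups and 425 with DESeq2, with postnatal exposure (611) to 367 with no filter and 1038 with DESeq2, and with DESeq2 to 14 in MetS-Ct (0), 165 with prenatal exposure (1) and 4 for the interaction (0). The cause was not tested. Without 1 library the count over all genes ranged from 219 (Ct-Ct_129 left out) to 1354 (Ct-Ct_33) in MetS-MetS, 12 (Ct-MetS_169) to 246 (Ct-Ct_33) in Ct-MetS, 349 (MetS-MetS_154) to 923 (Ct-MetS_50) with postnatal exposure and 0 (MetS-MetS_109, among others) to 22 (Ct-Ct_33) with prenatal exposure. The lowest count of any member in any library was 64, and counting error is largest for such members.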

Other observations

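Cars lies on mouse chromosome 7 at 143557230 to 143600090, near Tnfrsf26, Nap1l4, Slc22a18 and the imprinted gene Cdkn1c. Of the 11 other genes tested within 200 kb of it, 0 passed edgeR's test in MetS-Ct against Ct-Ct, where 0 had an unadjusted p under 0.05 and DESeq2 called 0. Of the tested genes on either side of it, Tnfrsf26 had a log2 fold change of 0.25 ± 0.24 (SE, adjusted p = 0.895 by edgeR) and Nap1l4 one of 0.037 ± 0.064 (0.944) in MetS-Ct, beside −0.64 ± 0.16 (0.447) for Cars. Among the 11 neighbours Osbpl5 had the largest estimate in MetS-Ct, 0.42 ± 0.23 (adjusted p = 0.835 by edgeR), and Cdkn1c had 0.21 ± 0.21 (0.897). With prenatal exposure over both postnatal states Osbpl5 lay at 0.47 ± 0.17 (unadjusted p = 0.0104, adjusted p = 0.201 by edgeR). Cars lay at −0.48 ± 0.12 there. With postnatal exposure Tnfrsf22, also within 200 kb, lay at −0.36 ± 0.14 (unadjusted p = 0.0167, adjusted p = 0.138 by edgeR).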
